A study of Drosophila melanogaster with 20 samples.

Results

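The levels of 6 genes of the neural progenitor programme of Drosophila were followed in larval eye imaginal discs, most of which expressed human proinsulin: dpn, ase, nerfin-1, mira, pins and insc. They were taken by gene symbol from the array annotation, with every probe set that carries the symbol. Each of the 6 genes had 1 probe set of its own, out of 11981 genes with such a probe set, and a further probe set is annotated to both pins and hoip, which lies on another chromosome, and is given apart and counted for neither gene. All 7 probe sets passed the filter on low values.

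The series holds 20 Affymetrix arrays from eye discs of wandering larvae in instar 3, raised at 25 °C. Human proinsulin was driven by GMR-GAL4, a driver that acts in the part of the eye disc behind the morphogenetic furrow and not in the whole disc. Lines Mut-1 and Mut-101 carried 1 copy of UAS-hINS with the C96Y change, which replaces a cysteine of proinsulin that normally forms a disulphide bond. Lines WT-6 and WT-24 carried 1 copy of UAS-hINS of the wild-type sequence, and the non-transgenic flies are labelled with GMR-GAL4 alone. Each line was measured in males and females with 2 arrays each, which gave 8 arrays of C96Y, 8 of wild-type proinsulin and 4 of non-transgenic flies.

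Neural progenitors of the fly, the neuroblasts and the sensory organ precursors, divide asymmetrically, so that one daughter keeps or loses fate determinants that the other does not. The factors Dpn and Ase are basic helix-loop-helix proteins of progenitors, Nerfin-1 acts in the step that follows, in young neurons, and the Insc, Pins and Mira proteins polarise the dividing cell and sort its determinants. In the eye disc most neurons are photoreceptors, which are recruited without neuroblast divisions, and progenitors of the neuroblast type are those of the neighbouring brain.

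Of the eye disc markers that check the tissue label, 12 of 12 were among the probe sets tested, with summed intensities of 45846 to 50381 in C96Y, 47114 to 54104 in wild-type proinsulin and 49319 to 50407 in non-transgenic discs. Of 7 antennal disc markers, 6 had a probe set. Their sums were 12766 to 13724 in C96Y, 13740 to 14497 in wild-type proinsulin and 13965 to 14169 in non-transgenic discs. All C96Y sums thus lay below those of both other kinds. Their geometric means overlapped, with 1836 to 2022 in C96Y, 1982 to 2156 in wild-type proinsulin and 1989 to 2116 in non-transgenic discs. Of 18 markers of brain neuroblasts and optic lobe, 15 had a probe set, and their sums were 7771 to 10723 in C96Y, 8611 to 9426 in wild-type proinsulin and 8467 to 9511 in non-transgenic discs. The geometric mean of the ring gland markers, 9 of 10 with a probe set, ran from 165 to 432 in C96Y, 172 to 1105 in wild-type proinsulin and 171 to 923 in non-transgenic discs. The ring gland mean lay above 300 in 2 of 8 C96Y arrays, both of Mut-101, in 3 of 8 wild-type proinsulin arrays and in 3 of 4 non-transgenic arrays. Fat body markers, 3 of 6 with a probe set, ran from 388 to 1693 in C96Y, 151 to 6898 in wild-type proinsulin and 128 to 10024 in non-transgenic discs, and WT-24 female replicate 1 and non-Tg male replicate 2 were the 2 arrays above 5000. Array mean intensities lay between 1194 and 1250, and array medians between 213 and 249 apart from 286 in Mut-101 male replicate 2. Bulk intensities do not separate fewer cells of a type from less RNA per cell.

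**Figure D1:**
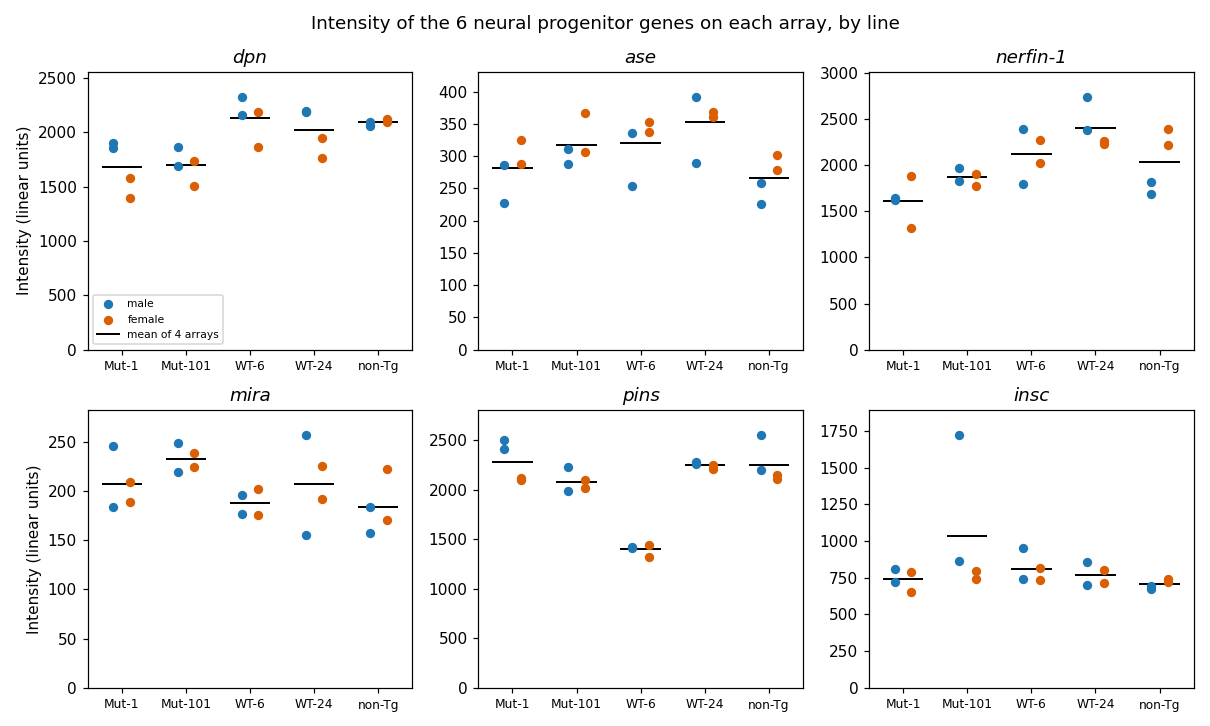
Intensity of each of the 6 genes (linear MAS5 units, vertical axis) in every array, by line and sex; points are arrays and the lines on the axis run Mut-1, Mut-101, WT-6, WT-24, non-Tg. All 8 C96Y arrays of dpn lie below the 4 non-transgenic ones, the 4 WT-6 arrays of pins lie apart from all others, and 1 Mut-101 male array of insc stands at 1721.

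In C96Y discs, dpn and nerfin-1 were lower than in wild-type proinsulin discs and pins was higher, while ase, mira and insc did not pass the test. For pins only line WT-6 was low, at 1320 to 1438, against 2210 to 2275 in WT-24 and 1985 to 2503 in C96Y. By limma, pins did not differ between C96Y and non-transgenic discs (-0.04, adjusted p = 0.566). Changes are differences of mean log2 intensity with standard errors, from limma fitted to all 11261 tested probe sets, and a change was called at a Benjamini-Hochberg adjusted p under 0.05. Of the 6 genes 3 were called here, against 19.7% of all tested probe sets (10.8% higher and 8.92% lower), and the median change over all tested probe sets was -0.01. The error of these tests is the spread between arrays within a line and sex: with 1 mean per line, 2 lines against 2, the adjusted p was 0.163 for dpn, 0.208 for nerfin-1 and 0.529 for pins.

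The deadpan gene dpn encodes a Hes-family repressor that maintains neuroblast self-renewal. Its intensity ran from 1391 to 1899 in C96Y discs with a median of 1711, against 1762 to 2323 with a median of 2171 in wild-type proinsulin discs, and 2054, 2092, 2093 and 2123 in the 4 non-transgenic arrays. Of the 8 C96Y arrays, 5 lay below every wild-type proinsulin array, and all 8 lay below every non-transgenic array. The log2 change was -0.30 ± 0.0469 against wild-type proinsulin (SE, adjusted p = 0.000754), a ratio of 0.812. Against non-transgenic discs it was -0.32 ± 0.0574 (adjusted p = 0.00383), and dpn was the 1 gene of the 6 called there, against 11.3% of all probe sets (6.43% higher and 4.83% lower). Both comparisons share the C96Y arrays, so they are not independent. The call against non-transgenic discs was lost with a block for the number in the sample description. In males alone the dpn change was -0.28 against wild-type proinsulin (adjusted p = 0.0208) and -0.18 against non-transgenic discs, no longer called (adjusted p = 0.211). In females alone it was -0.32 against wild-type proinsulin, no longer called (adjusted p = 0.0650), and -0.45 against non-transgenic discs (adjusted p = 0.0423). Wild-type proinsulin and non-transgenic discs differed by -0.02 (95% interval -0.14 to 0.11). In the annotation dpn overlaps the non-coding genes asRNA:CR44275, sisRNA:4 and sisRNA:CR46360, and whether the probe set also measures them was not tested. By mean intensity dpn stood at percentile 78.8 of all probe sets, ase at 54.7 and mira at 47.2. The neuroblast factor wor had a median of 66.3. Which cells gave the dpn signal was not tested.

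Both mutant lines had lower dpn than the wild-type proinsulin lines. Of the 6 genes 3 were called in Mut-1, against 17.9% of all probe sets (9.4% higher and 8.52% lower), and 2 in Mut-101, against 7.11% (4.47% higher and 2.65% lower). The change was -0.31 ± 0.0574 in Mut-1 (adjusted p = 0.00220) and -0.29 ± 0.0574 in Mut-101 (adjusted p = 0.00994). Mut-1 and Mut-101 differed by -0.02, with an interval of -0.17 to 0.12. In order of mean intensity over 4 arrays, Mut-1 was lowest with 1679 ± 239, followed by Mut-101 with 1698 ± 151, WT-24 with 2021 ± 208, non-Tg with 2091 ± 28.3 and WT-6 with 2132 ± 195 (SD, n = 4 each), and no 2 neighbours in this order had ranges that did not overlap. Without Mut-101 female replicate 2 the Mut-101 change was -0.24 (adjusted p = 0.0734), while leaving out any 1 array kept the call of C96Y against wild-type proinsulin. The 8 arrays above 300 in ring gland markers were also left out, a choice made after the data were seen. That fit had a sex difference common to all lines in place of 1 mean per line and sex. The C96Y change was then -0.21 (adjusted p = 0.0701) in place of -0.30, and the call was lost. The estimate, the number of arrays and the model all changed, and what lost the call was not tested. The part of ring gland tissue in the result was not tested. Without the 2 arrays above 5000 in fat body markers, likewise chosen after the data were seen, the C96Y change of dpn was -0.32 (adjusted p = 0.00249), and nerfin-1 was at -0.37 (adjusted p = 0.0141).

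dpn was also the 1 of the 6 genes that differed between sexes, with a change of 0.17 ± 0.0419 in males relative to females (adjusted p = 0.0211), against 12.4% of all probe sets called (8.01% higher and 4.42% lower). Mean intensities of males and females were 1875 and 1483 in Mut-1, 1777 and 1619 in Mut-101, 2241 and 2023 in WT-6, and 2189 and 1853 in WT-24. Non-transgenic discs had 2073 in males and 2108 in females, so 4 of 5 lines had the higher mean in males. The adjusted p was 0.0502 without Mut-101 female replicate 2, 0.109 without line WT-24, 0.127 without line Mut-1 and 0.0789 without the 2 arrays high in fat body markers.

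For a sex difference of the C96Y change against wild-type proinsulin, limma called none of the 6 genes and 0% of all probe sets, with 0 of the 6 and 380 of 11261 probe sets at an unadjusted p under 0.05. For dpn that sex difference was 0.04 with an interval of -0.16 to 0.24.

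nerfin-1 encodes a zinc finger protein needed in young neurons for axon guidance, and for the maintenance of neuronal differentiation. Its intensity ran from 1321 to 1975 in C96Y discs with a median of 1803, against 1801 to 2741 with a median of 2270 in wild-type proinsulin discs, and 1694, 1816, 2220 and 2400 in the non-transgenic arrays. Of the 8 C96Y arrays, 4 lay below every wild-type proinsulin array and 3 lay below every non-transgenic array. The change against wild-type proinsulin was -0.38 ± 0.0749 (adjusted p = 0.00379), a ratio of 0.771. Against non-transgenic discs it was -0.22 ± 0.0917 and was not called (adjusted p = 0.147), and without Mut-1 female replicate 1 it was -0.28 (adjusted p = 0.0307). Wild-type proinsulin discs, in turn, had a nerfin-1 change of 0.16 against non-transgenic discs, also not called (adjusted p = 0.772).

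nerfin-1 was called in Mut-1 and not in Mut-101. The change was -0.49 ± 0.0917 in Mut-1 (adjusted p = 0.00259) and -0.27 ± 0.0917 in Mut-101 (adjusted p = 0.101), and the difference between Mut-1 and Mut-101 was -0.22, not called (adjusted p = 0.363). The Mut-101 change passed the threshold when WT-6 male replicate 1 (adjusted p = 0.0450) or either Mut-1 female array (adjusted p = 0.0417 and 0.0414) was left out. Line means were 1618 ± 231 in Mut-1, 1873 ± 88.0 in Mut-101, 2124 ± 264 in WT-6, 2404 ± 234 in WT-24 and 2032 ± 332 in non-Tg (SD, n = 4 each). The C96Y call was lost without line Mut-1 (-0.27, adjusted p = 0.0552), without line WT-24 (-0.28, adjusted p = 0.0909), without the arrays high in ring gland markers (-0.37, adjusted p = 0.0868), in males alone (-0.39, adjusted p = 0.0612) and in females alone (-0.37, adjusted p = 0.0962).

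ase encodes Asense, a proneural-type factor of neuroblasts and sensory organ precursors. Its values ran from 227 to 366 in C96Y discs with a median of 297, against 254 to 392 with a median of 345 in wild-type proinsulin discs, and 226 to 301 with a median of 268 in non-transgenic discs. The ranges of the 3 kinds of disc overlapped. Line means were 282 ± 40.4 in Mut-1, 318 ± 33.96 in Mut-101, 320 ± 44.6 in WT-6, 353 ± 43.9 in WT-24 and 266 ± 32.0 in non-Tg (SD, n = 4 each), and no neighbours in their order had ranges apart. The C96Y change against wild-type proinsulin was -0.17 ± 0.0849 (adjusted p = 0.195). The change of wild-type proinsulin against non-transgenic discs was 0.34 ± 0.104, with an unadjusted p of 0.00639 and an adjusted p of 0.511. Female means were above male means in 5 of 5 lines, with a change of -0.21 ± 0.0760 in males relative to females (adjusted p = 0.0882), or -0.25 (adjusted p = 0.0486) without WT-24 male replicate 1. In the annotation ase overlaps CG32816, and whether the probe set also measures that gene was not tested.

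pins encodes the partner of Inscuteable, a protein that links the cortex to the spindle in dividing cells. In this gene 1 line stood apart. Mut-1 gave 2410, 2503, 2119 and 2102, and Mut-101 gave 2226, 1985, 2098 and 2019. The 4 WT-6 arrays gave 1409, 1419, 1438 and 1320, whereas WT-24 gave 2275, 2262, 2210 and 2246, and non-Tg gave 2194, 2549, 2146 and 2106. All 4 WT-6 arrays lay below the other 16 arrays, and among neighbours in the order of line means only Mut-101 and WT-6 had ranges apart.

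The WT-6 change against WT-24 was -0.69 ± 0.0517 (adjusted p = 5.90e-05), a ratio of 0.621, and pins was the 1 of 6 genes called there, against 0.906% of all probe sets (0.32% higher and 0.586% lower). The calls of pins in the pooled comparisons followed this line. The change of C96Y against wild-type proinsulin was 0.30 ± 0.0366 (adjusted p = 0.000125), and -0.05 (adjusted p = 0.536) when line WT-6 was left out. Wild-type proinsulin fell by 0.34 ± 0.0448 against non-transgenic discs (adjusted p = 0.00810), where 0.0977% of probe sets were called (0.0444% higher and 0.0533% lower) and pins was the 1 of the 6 genes, and without WT-6 the change was 0.00385 (adjusted p = 0.984). That call was also lost without non-Tg female replicate 2 (-0.35, adjusted p = 0.0571) and without the 2 arrays high in fat body markers (-0.28, adjusted p = 0.0780). With line as a random block the adjusted p was 0.1002 for C96Y against wild-type proinsulin and 0.960 for wild-type proinsulin against non-transgenic discs. C96Y against non-transgenic discs gave -0.04 (adjusted p = 0.566). Mut-1 and Mut-101 gave 0.36 (adjusted p = 0.000106) and 0.23 (adjusted p = 0.00819) against the wild-type lines, and 0.02 (adjusted p = 0.861) and -0.11 (adjusted p = 0.235) without WT-6.

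**Figure D2:**
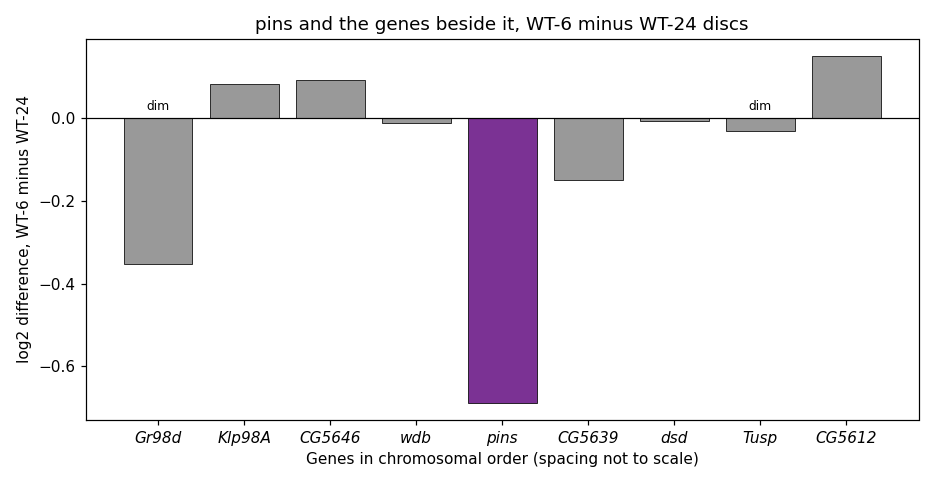
Log2 change of WT-6 against WT-24 (vertical axis, height of each bar) for pins and the genes around it, in their order on chromosome arm 3R. No intervals are drawn, and dim marks genes below the filter on low values. pins stands at -0.69, while wdb, dsd, Klp98A and CG5646 lie between -0.01 and 0.09. CG5639 stands at -0.15, CG5612 at 0.15 and the dim gene Gr98d at -0.35.

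None of the tested genes around pins on chromosome arm 3R was called between the wild-type lines. The WT-6 change against WT-24 was -0.01 for wdb, 0.09 for CG5646, 0.08 for Klp98A, -0.15 for CG5639, -0.01 for dsd and 0.15 for CG5612. These neighbours were chosen after the pins values were seen. The probe set shared by pins and hoip gave 8870 to 10758 over all arrays and a WT-6 change of 0.06, also not called, and its signal cannot be divided between the pair. Male means of pins were above female means in 5 of 5 lines, with a change of 0.09 ± 0.0327 (adjusted p = 0.0783), or 0.11 (adjusted p = 0.0286) without non-Tg male replicate 1. Whether the single-gene probe set of pins or the pins transcript differs in line WT-6 was not tested.

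mira encodes the adaptor that carries Prospero and other determinants to one side of the dividing neuroblast. Its values were 184 to 249 in C96Y discs with a median of 222, 155 to 257 in wild-type proinsulin discs with a median of 194, and 158, 170, 184 and 222 in the non-transgenic arrays, and the 3 ranges overlapped. Line means were 207 ± 28.3 in Mut-1, 233 ± 13.5 in Mut-101, 188 ± 13.7 in WT-6, 207 ± 43.8 in WT-24 and 183 ± 28.0 in non-Tg (SD, n = 4 each). The C96Y change was 0.16 ± 0.108 against wild-type proinsulin (adjusted p = 0.327) and 0.26 ± 0.132 against non-transgenic discs (adjusted p = 0.215). The change of wild-type proinsulin against non-transgenic discs was 0.10 (adjusted p = 0.885). The annotation lists Hs6st as overlapping mira.

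insc encodes Inscuteable, which joins Pins to the apical complex. Its values were 655 to 866 in 7 of the 8 C96Y arrays and 1721 in the other, Mut-101 male replicate 2, against 698 to 954 with a median of 771 in wild-type proinsulin discs and 671 to 744 in non-transgenic discs. Line means were 742 ± 68.6 in Mut-1, 1032 ± 462 in Mut-101, 812 ± 101 in WT-6, 767 ± 74.2 in WT-24 and 707 ± 32.4 in non-Tg (SD, n = 4 each). Mut-101 male replicate 2 was 2.31 times the median over all 20 arrays, and no other array passed 954. The C96Y change against wild-type proinsulin was 0.11 ± 0.117 (adjusted p = 0.564), and -0.02 (adjusted p = 0.909) without it. Mut-1 and Mut-101 differed by -0.39 ± 0.166 (adjusted p = 0.284), and by -0.14 (adjusted p = 0.764) without it. Of the 6 genes none was called between Mut-1 and Mut-101 by limma, against 3.33% of all probe sets (2.02% higher and 1.31% lower), while 2 of the 6, insc and pins, had an unadjusted p under 0.05. With the other Mut-101 male array left out instead, so that the value of 1721 stands alone for Mut-101 males, insc was called for C96Y against wild-type proinsulin (0.23, adjusted p = 0.04995), C96Y against non-transgenic (0.39, adjusted p = 0.0182), Mut-101 against the wild-type lines (0.55, adjusted p = 0.00897), Mut-1 against Mut-101 (-0.64, adjusted p = 0.00674) and male against female (0.26, adjusted p = 0.0212). In the annotation insc overlaps sktl.

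Some other brain genes, but not all, were high in the same Mut-101 male array, which also had the highest median intensity, 286 against at most 249 in the others. Of the 15 brain and optic lobe markers with a probe set, 5 had their highest value of all 20 arrays there. Among them slp2 (1428, next highest 1409.5) and brp (637, next highest 619) were highest by small margins. That array held the highest value of 12.2% of all tested probe sets. It held that of 2 of 9 glial, 1 of 4 muscle, 1 of 12 eye disc and 1 of 7 haemocyte markers. For antennal disc, ring gland and fat body markers it held 0 of 6, 0 of 9 and 0 of 3. It was still 1 of the 8 arrays above 300 in ring gland markers, with a geometric mean of 432. Vmat, the vesicular monoamine transporter, reached 799 against a median of 121 and a next highest value of 232. ChAT, which makes acetylcholine, reached 255 against a median of 117, and the temporal factor cas reached 447 against a median of 135. wor, a neuroblast factor, stood at 69.8 within its range over the other arrays, and VGlut at 50.2 below its median of 65.1, as tll, pon, bsh and ple were below theirs. The medians of wor, VGlut, ple, hbn, Vmat, ChAT and cas lay below 153, the lowest geometric mean tested. Whether brain tissue contributed to the insc value was not tested.

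**Figure D3:**
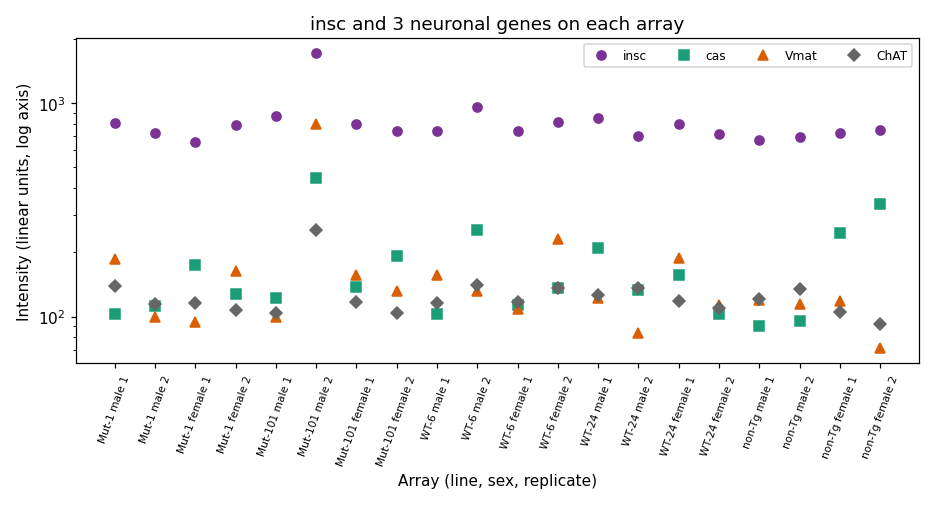
Intensity of insc and of the brain markers cas, Vmat and ChAT (linear MAS5 units on a log axis) in each of the 20 arrays, in order of line and sex. In Mut-101 male replicate 2 insc at 1721, Vmat at 799, cas at 447 and ChAT at 255 are at their highest. The markers drawn are among the 5 of 15 brain markers highest in that array. wor, which is not drawn, stands at 69.8 there and is not at its highest. The medians of wor, cas, Vmat and ChAT lie below 153, the lowest geometric mean tested.

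Related genes were read from 3 lists that left out the 6 genes. Among progenitor and proneural transcription factors, 24 of 40 were tested: 9 were lower in C96Y than in wild-type proinsulin discs (37.5%, against 8.92% of all probe sets) and none was higher (against 10.8%), with a median change of -0.08 against -0.01 over all probe sets, and 14 of the 24 had an unadjusted p under 0.05. The lower genes were tll, the tailless factor of the optic lobe and anterior brain (-0.53, adjusted p = 0.0219), klu, a zinc finger factor of neuroblasts (-0.46), SoxN, a Sox factor of the early neuroectoderm (-0.46), the proneural genes ac (-0.41) and sc (-0.20), E(spl)mdelta-HLH (-0.21) and E(spl)m7-HLH (-0.19), which answer Notch, esg (-0.13), and emc, an inhibitor of proneural proteins (-0.10). Against non-transgenic discs da, a partner of proneural proteins, was the 1 of the 24 that was lower (-0.17), or 4.17% against 4.83% of all probe sets, and none was higher; without the 2 arrays high in fat body markers none was lower. Between wild-type proinsulin and non-transgenic discs limma called 0 of the 24, against 0.0977% of all probe sets. There 4 of the 24 had an unadjusted p under 0.05, against 797 of 11261 probe sets. The count of 9 was 2 without line WT-24, and 3 without line Mut-1 or without the arrays high in ring gland markers, and 8 without the 2 arrays high in fat body markers, where 1 factor was higher.

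The mutant lines were also set against the wild-type lines one by one. Against the wild-type lines 8 factors were lower in Mut-1, with SoxN at -0.89 and klu at -0.60 (33.3%, against 8.52% of all probe sets), and 2 were lower in Mut-101, tll at -0.72 and E(spl)m7-HLH at -0.21 (8.33%, against 2.65%). SoxN was at -0.03 in Mut-101, and its difference between Mut-1 and Mut-101, -0.86 ± 0.144, was called (adjusted p = 0.00414). It was the 1 gene of the 24 for which that difference was called, against 3.33% of all probe sets. Leaving out 1 array at a time gave 4 to 9 lower factors in Mut-1 and 0 to 3 in Mut-101.

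Of the asymmetric division genes, 20 of 31 were tested, and in C96Y against wild-type proinsulin 2 were higher (10%, against 10.8% of all probe sets) and 3 lower (15%, against 8.92%), with a median of -0.02, so the share higher was near that of all probe sets. dlg1, a cortical polarity scaffold, was -0.26 ± 0.0311 (adjusted p = 0.000108), and was also lower in Mut-1 (-0.33), in Mut-101 (-0.19) and against non-transgenic discs (-0.20). pros, which encodes the determinant that Mira carries, was -0.48 ± 0.0953 (adjusted p = 0.00365). It stood at -0.98 in Mut-1 and at 0.02 in Mut-101 (adjusted p = 0.952), and the difference between the mutant lines was called (-0.997 ± 0.135, adjusted p = 0.000929). tws, a phosphatase subunit, was at -0.18, while mud, which binds Pins, was at 0.31 and Galphai, the G protein subunit that binds Pins, at 0.08. With 1 array left out at a time, 0 to 2 genes of this list were higher and 3 to 4 lower.

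Of neuronal differentiation genes, 22 of 26 were tested, with 2 higher (9.09%, against 10.8% of all probe sets) and 6 lower (27.3%, against 8.92%) in C96Y than in wild-type proinsulin, and a median of -0.06. CadN, a neuronal cadherin, was -0.53 (adjusted p = 0.00214), elav, the neuronal RNA-binding protein used as a marker of photoreceptors, -0.20 (adjusted p = 0.00369), and Appl -0.24 (adjusted p = 0.0125). Snap25, a synaptic fusion protein, was at 0.58 and onecut, a homeodomain factor, at 0.27. In Mut-1 9 genes were lower (40.9%, against 8.52% of all probe sets). In Mut-101 limma called 0 lower (against 2.65% of all probe sets) and 0 higher (against 4.47%). There 4 of the 22 had an unadjusted p under 0.05, against 2579 of 11261 probe sets. Between the mutant lines limma called no gene of this list, against 3.33% of all probe sets. In that comparison 9 of the 22 had an unadjusted p under 0.05, against 1646 of 11261 probe sets. The count of 6 lower genes was 2 without line WT-24 and 0 without line Mut-1, and with 1 array left out at a time 4 to 6 were lower and 0 to 2 higher in C96Y, and 3 to 9 lower in Mut-1.

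Markers of the disc and of other cells were read in the same comparison of C96Y against wild-type proinsulin discs, where 10.8% of all probe sets were higher and 8.92% lower. Of 12 eye disc markers tested, 2 were higher (boss at 0.23 and ro at 0.15) and 6 lower, among them sev at -0.26, so at -0.14 and elav, which the neuronal list also holds. Of 8 brain markers tested 2 were lower, klu and tll, which the progenitor list also holds. Of 7 haemocyte markers tested 1 was lower, NimC1 (-1.14), and 1 higher, Hml (0.51). NimC1 stood at 189 to 238 in C96Y arrays, at 748 to 1276 in WT-6 and at 151 to 320 in WT-24, so the ranges of C96Y and WT-24 overlapped and WT-6 lay above both. Of 6 glial markers moody was higher (0.51) and 2 were lower, and of 6 antennal disc markers salr (-0.33) and Dll (-0.13) were lower. Of 7 ring gland, 3 fat body and 4 muscle markers tested limma called 0, with 0 at an unadjusted p under 0.05. The part of these cells in the changes of dpn, nerfin-1 and the listed genes was not tested.

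**Figure D4:**
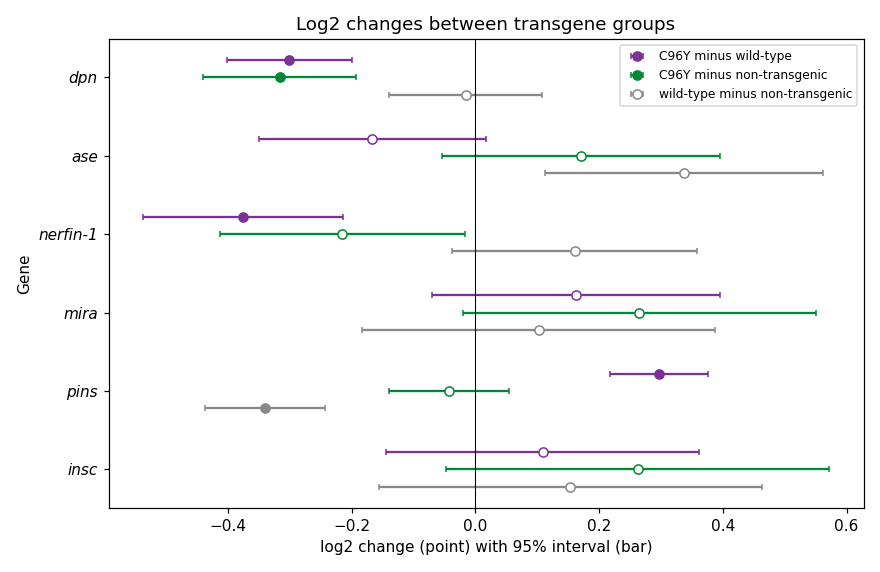
Log2 change of each of the 6 genes (horizontal axis) between C96Y, wild-type proinsulin and non-transgenic discs, with bars for the 95% interval and filled points where the change was called. For C96Y, dpn is called at -0.30 against wild-type proinsulin and -0.32 against non-transgenic discs. nerfin-1 is called at -0.38 and pins at 0.30 for C96Y against wild-type proinsulin. pins is also called at -0.34 for wild-type proinsulin against non-transgenic discs.

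Gene expression patterns nearest to those of the 6 genes were ranked by Pearson r over the 10 line and sex means. For dpn these were coro (r = 0.984), Graf (0.978) and ed (0.965). For nerfin-1 they were Appl (0.968), CG33096 (0.966) and kel (0.964), and for pins CtsF (0.933), CG32982 (0.920) and CG7668 (0.888). For ase they were Dd (0.935), CG5611 (0.915) and dgrn (0.915), and for mira Hus1-like (0.974), lqfR (0.964) and DIP-theta (0.934). For insc they were Nlg3 (0.964), CG12672 (0.948) and CG11317 (0.932), all highest in Mut-101 males as insc was. The 3 genes nearest to mira were likewise highest in Mut-101 males, as mira was. Among the 6 genes, the likest pair over the same means was nerfin-1 and dpn (0.65), and mira and dpn gave -0.57, as descriptions over groups that share arrays and scaling.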

How the data were processed

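The authors' deposited intensity values are linear and come from MAS5, per the submitters' processing notes, with no version or settings, so scaling was not changed here. Intensities were taken to log2 here, with no offset. The 183 control probe sets were left out, and of the remaining 18769 the upper 60% by mean log2 were tested (11261, lowest geometric mean 153). Names come from the platform annotation: 13646 probe sets have 1 gene, 402 several and 4721 none, and 13543 of the single-gene ones matched RefSeq (Release 6 plus ISO1 MT), with 0 symbols changed.

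limma 3.58.1 in R 4.3.3 was fitted to all 20 arrays with 1 mean per line and sex, eBayes with a trend, 10 residual degrees of freedom, two-sided tests and Benjamini-Hochberg adjustment over all probe sets. Each error reflects how far the 2 arrays within a line and sex lie apart, so p-values say nothing of the spread between insertion lines; the labels call the arrays biological replicates. Arrays with the same replicate number in the title deviated together in 14 of 45 pairs of groups at a correlation over 0.1 (range -0.473 to 0.293), so the title numbers were not used as pairs. The numbers in the description were not checked in this way, and the main fit did not use them either. They are spread unevenly over the lines, and Mut-101 and WT-24 share none. A block by them is thus partly confounded with line.

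The members and lists were chosen with earlier results of these data known. Named genes are the 6, called list members and up to 4 per list by smallest p in C96Y against wild-type proinsulin, and the 3 most alike per gene. The alternatives changed the filter, scaling, offset, blocks, and the arrays, lines or sexes used. The human transgene was not analysed here.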

Additional observations from a re-analysis of the deposited data

Results flagged for a closer look

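In the arrays of single lines and of the C96Y, wild-type and non-transgenic kinds, 49 groups were examined for an array far from the others and 4 had one; chance gives about 1 in 20. For insc, Mut-101 male replicate 2 was highest at 1720.77, with 866 as the nearest value both among the 4 Mut-101 and among the 8 C96Y arrays. For ase, WT-6 male replicate 1 was lowest at 254.42, with 336 as the nearest of the 4 WT-6 arrays. For the probe set shared by pins and hoip, Mut-1 female replicate 2 was highest at 10574.68, with 9697 as the nearest of the 4 Mut-1 arrays. For pins, the change of wild-type proinsulin against non-transgenic discs differed between WT-6 and WT-24 by -0.69 (adjusted p = 5.90e-05).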

How the results depend on the processing

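The counts of called genes among the 6 are 3 for C96Y against wild-type proinsulin, 1 for C96Y against non-transgenic discs, 1 for wild-type proinsulin against non-transgenic discs, 3 for Mut-1 and 2 for Mut-101 against the wild-type lines, 0 between the mutant lines, 1 for WT-6 against WT-24, and 1 for male against female. Leaving out each replicate gave 3 to 4, 1 to 2, 0 to 1, 3 to 3, 1 to 3, 0 to 1, 1 to 1 and 0 to 2 in that order. A block for the replicate number of the title changed no count. A block for the number in the description gave 0 for C96Y against non-transgenic, wild-type proinsulin against non-transgenic, Mut-101 against wild-type, WT-6 against WT-24 and male against female (dpn in C96Y against non-transgenic was -0.32, adjusted p = 0.0829). The pairing check was made on the title numbers and gave no ground for a block by them. Pairing by the description numbers was not tested. Those numbers are partly tied to line, so a block by them cannot be fully told apart from line differences. Without line WT-6 the count was 0 for wild-type proinsulin against non-transgenic and 1 for Mut-101, and pins turned to -0.0468, 0.00385 and -0.11 for C96Y against wild-type, wild-type against non-transgenic and Mut-101 against wild-type. Without line WT-24 or line Mut-1 the sex count was 0. Males only gave 0 for C96Y against non-transgenic, wild-type against non-transgenic, Mut-101 against wild-type and WT-6 against WT-24. Females only gave 1 for C96Y against wild-type and for Mut-1, and 0 for wild-type against non-transgenic and for Mut-101. With line as a random block wild-type against non-transgenic gave 0, and with 1 mean per line C96Y against wild-type gave 0 of 6, and 0 of all probe sets. Without the 8 arrays above 300 in ring gland markers, a choice made after the data were seen, the counts were 1 for C96Y against wild-type and 0 for wild-type against non-transgenic and for Mut-101. That fit also had a sex difference common to all lines in place of 1 mean per line and sex. Without the 2 arrays above 5000 in fat body markers, chosen likewise, the count was 0 for wild-type against non-transgenic and for male against female, and the probe sets called were 525 in place of 1268 for C96Y against non-transgenic, 7 in place of 11 for wild-type against non-transgenic and 785 for male against female. Where fewer arrays were used, fewer degrees of freedom remained; other causes were not tested. The 2218 probe sets called for C96Y against wild-type became 660 with the description block, 772 without Mut-1, 1107 without WT-24, 477 in males, 391 in females and 756 without the ring gland arrays.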
